A study of Mus musculus with 18 samples.

Results

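T and NK cell transcripts were followed in RNA from sorted mouse peritoneal macrophages as 10 genes chosen by name, out of 23511 genes in the count table. They were the T cell receptor complex genes Cd3e and Cd3g, the CD8 coreceptor genes Cd8a and Cd8b1, the kinase gene Lck, the surface marker gene Thy1, and the cytotoxic granule genes Gzma, Gzmb, Nkg7 and Prf1. All 10 passed the filter on low counts. The study sorted macrophages into Tim-4low and Tim-4high populations. Tim-4, encoded by Timd4, is a phosphatidylserine receptor of resident macrophages of the body cavities. In the anti-Tim-4 group, mice carried the MC38-LG tumor in the peritoneal cavity, received an antibody against Tim-4 on day 7 and were harvested on day 10. The isotype group carried the same tumor and is labelled as given an isotype antibody. No-tumor mice were neither challenged nor treated and were harvested the same day. Each of the 6 groups held 3 libraries, numbered 1 to 3 in the labels, which gave 18 libraries. The labels give no strain, sex or age of the mice. They do not say whether the 3 libraries of a group are from different mice, so the p-values below measure the spread between these libraries, which may be technical. MC38 is a mouse colon carcinoma cell line. By its title the study concerned cavity-resident macrophages and the response of CD8+ T cells to tumors.

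CD3 chains form the signalling part of the T cell receptor, and on contact with antigen the kinase Lck phosphorylates them. CD8, a dimer of the chains encoded by Cd8a and Cd8b1, binds MHC class I and brings Lck to the receptor. Activated CD8+ T cells and NK cells kill through granules, in which perforin, encoded by Prf1, opens the way for the proteases granzyme A and granzyme B, and Nkg7 is a granule membrane protein. Macrophages are not known for a T cell receptor of their own, whereas Thy1 is also made by some stromal cells, Cd8a by some dendritic cells and Gzmb by some mast cells. In bulk RNA, fewer cells of a type and less RNA per cell cannot be told apart.

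Some members lie close to each other in the genome. In mm10 with the GENCODE M21 annotation, Cd3g (ENSMUSG00000002033) on chromosome 9 from 44969572 to 44980431 lay near Cd3e (ENSMUSG00000032093) on chromosome 9 from 44998740 to 45009627, both on the minus strand. Thy1 (ENSMUSG00000032011) on chromosome 9 from 44043384 to 44048579 was on the plus strand of the same chromosome. Cd8b1 (ENSMUSG00000053044) on chromosome 6 from 71322788 to 71337494 lay beside Cd8a (ENSMUSG00000053977) on chromosome 6 from 71373427 to 71379173, both on the plus strand. The remaining genes were Lck (ENSMUSG00000000409) on chromosome 4 from 129548344 to 129573641, Gzma (ENSMUSG00000023132) on chromosome 13 from 113093825 to 113100981, Gzmb (ENSMUSG00000015437) on chromosome 14 from 56258838 to 56262260, Nkg7 (ENSMUSG00000004612) on chromosome 7 from 43437073 to 43438249 and Prf1 (ENSMUSG00000037202) on chromosome 10 from 61297833 to 61304680.

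Promoter sequences are shown for Lck, which has 2 starts, and for Cd3e, Cd8a, Prf1 and Gzmb as examples of the receptor, coreceptor and granule genes. A part of the promoters in the members' levels was not tested. RefSeq's GRCm38.p6 table held promoters for 8 of the 10 members, in 9 windows of 300 bases, from 250 before to 50 after the annotated start. Capitals mark 2 short motifs, searched on both strands, whose matches do not overlap each other in these windows. The ETS motif was searched as AGGAAGT, which reads ACTTCCT when it lies on the opposite strand. The RUNX motif was searched as TGTGGT, which reads ACCACA when it lies on the opposite strand. ETS and RUNX are families of transcription factors with well known roles in T and NK cells. The proximal Lck window is that of the transcript Lck-208, and the RefSeq start of Gzmb lies upstream of the GENCODE gene model. Each line runs 5′ to 3′ on the gene's strand.
Lck distal promoter, chr4:129573592-129573891, strand minus: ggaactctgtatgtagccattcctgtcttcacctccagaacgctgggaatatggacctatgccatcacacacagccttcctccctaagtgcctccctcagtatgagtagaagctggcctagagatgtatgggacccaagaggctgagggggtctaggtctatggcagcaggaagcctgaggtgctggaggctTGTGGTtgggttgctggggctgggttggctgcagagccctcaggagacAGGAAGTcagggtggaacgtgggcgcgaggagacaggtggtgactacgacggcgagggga
Lck proximal promoter, chr4:129558323-129558622, strand minus: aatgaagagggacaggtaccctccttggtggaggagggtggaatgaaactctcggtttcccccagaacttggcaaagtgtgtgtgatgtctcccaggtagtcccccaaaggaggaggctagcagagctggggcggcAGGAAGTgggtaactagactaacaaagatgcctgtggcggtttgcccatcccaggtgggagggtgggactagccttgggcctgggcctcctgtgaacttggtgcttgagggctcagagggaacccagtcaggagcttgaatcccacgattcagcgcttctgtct
Cd3e promoter, chr9:45009562-45009861, strand minus: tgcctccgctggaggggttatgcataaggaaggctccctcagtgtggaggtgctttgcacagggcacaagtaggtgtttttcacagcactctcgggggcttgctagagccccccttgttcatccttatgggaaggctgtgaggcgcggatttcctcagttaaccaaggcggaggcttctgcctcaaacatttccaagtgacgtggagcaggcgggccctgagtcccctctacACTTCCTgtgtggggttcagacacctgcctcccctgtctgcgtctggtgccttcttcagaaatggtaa
Cd8a promoter, chr6:71373177-71373476, strand plus: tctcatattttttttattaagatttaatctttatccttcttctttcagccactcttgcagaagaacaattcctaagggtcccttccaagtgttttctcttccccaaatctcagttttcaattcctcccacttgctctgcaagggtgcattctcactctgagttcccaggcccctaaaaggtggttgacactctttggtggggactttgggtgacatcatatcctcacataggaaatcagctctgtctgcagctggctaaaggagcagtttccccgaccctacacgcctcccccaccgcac
Prf1 promoter, chr10:61297586-61297885, strand plus: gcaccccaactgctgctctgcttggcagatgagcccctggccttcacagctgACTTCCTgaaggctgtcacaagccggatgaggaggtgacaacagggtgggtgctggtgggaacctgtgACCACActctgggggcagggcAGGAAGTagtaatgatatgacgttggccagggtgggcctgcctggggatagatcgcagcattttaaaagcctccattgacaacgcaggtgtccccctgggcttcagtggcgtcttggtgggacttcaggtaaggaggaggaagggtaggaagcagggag
Gzmb promoter, chr14:56262285-56262584, strand minus: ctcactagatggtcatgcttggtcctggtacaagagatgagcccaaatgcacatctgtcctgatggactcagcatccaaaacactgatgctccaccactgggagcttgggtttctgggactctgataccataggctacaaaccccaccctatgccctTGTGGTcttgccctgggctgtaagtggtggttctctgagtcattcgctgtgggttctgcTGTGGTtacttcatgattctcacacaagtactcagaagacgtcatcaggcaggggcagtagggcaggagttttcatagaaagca

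The ETS letters were in 4 of the 9 windows, both of Lck, that of Cd3e and that of Prf1, against 9.35% of all 32851 promoters in the table. The RUNX letters were in 5 of the 9, those of distal Lck, Nkg7, Prf1, Gzma and Gzmb, against 16.8% of all promoters. The windows of Cd8a and Cd3g held neither. These matches describe the letters in short windows and show no binding.

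Library totals ran from 24530070 to 34110392 estimated gene counts. The 10 members together held 72 to 5549 of these counts per library, at most 0.0179% of a library. Levels below are CPM, gene counts scaled to a common library size after TMM normalization. Timd4, the gene behind the sort, was lower in Tim-4low libraries without overlap in each condition, at 21.3 ± 8.69 CPM in Tim-4low macrophages and 187 ± 28.2 CPM in Tim-4high macrophages with anti-Tim-4, 33.6 ± 36.2 CPM in Tim-4low macrophages and 298 ± 19.8 CPM in Tim-4high macrophages with isotype and 42.4 ± 57.3 CPM in Tim-4low macrophages and 729.5 ± 138 CPM in Tim-4high macrophages without a tumor (SD, n = 3). By edgeR this difference passed with isotype (adjusted p = 0.0134) and without a tumor (adjusted p = 0.00293) but not with anti-Tim-4 (adjusted p = 0.0881). The 10 macrophage markers summed to 17482 to 46136 CPM per library. Isotype library 3 stood apart in both populations. Its 10 members were 4.97- to 6.51-fold above the mean of isotype libraries 1 and 2 in Tim-4low and 5.02- to 10.1-fold above it in Tim-4high macrophages. Member calls and log2 fold changes between conditions, and between populations with isotype, are therefore given with and without it. Counts at an unadjusted p, counts without overlap and DESeq2 calls are given only with it. So are fits with library number as a block and the ranking of similar genes. It also enters the spread shared by the groups in the fits that keep it.

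T cell receptor and coreceptor transcripts were low throughout, and isotype library 3 held the highest level of each. Cd3e stood at 0.843, 1.98 and 1.44 CPM in anti-Tim-4 Tim-4low libraries 1 to 3 and 0.893, 0.539 and 0.841 CPM in anti-Tim-4 Tim-4high ones. In isotype mice Cd3e reached 2.38, 1.23 and 9.91 CPM in Tim-4low macrophages and 1.84, 0.978 and 7.08 CPM in Tim-4high libraries. Cd3e in no-tumor mice was 1.43, 0.438 and 0.138 CPM in Tim-4low macrophages and 0.934, 0.553 and 0.0377 CPM in Tim-4high libraries. No-tumor library 1 thus overlapped isotype libraries 1 and 2 in Tim-4low macrophages, while in Tim-4high macrophages it lay just under them. Cd3g, the gene of a partner chain, covered 1.32 to 2.08 CPM and 0.695 to 1.09 CPM in anti-Tim-4 Tim-4low and Tim-4high libraries. It covered 1.86 to 10.7 CPM and 1.2 to 9.32 CPM in the isotype ones, and 0.138 to 1.29 CPM and 0.151 to 1.16 CPM without a tumor.

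Cd8a separated tumor from no-tumor mice in every library. With anti-Tim-4, Cd8a was at 1.93, 4.13 and 2.11 CPM in Tim-4low macrophages and 2.45, 2.35 and 1.1 CPM in Tim-4high libraries. With isotype, Cd8a was at 3.9, 3.5 and 20.6 CPM in Tim-4low macrophages and 3.03, 2.83 and 19.3 CPM in Tim-4high libraries. Without a tumor it was at 0.907, 0.282 and 0.0551 CPM in Tim-4low macrophages and 0.56, 0.237 and 0.226 CPM in Tim-4high libraries. Every tumor library lay above the highest no-tumor value. Cd8b1, which marks conventional CD8+ T cells more closely than Cd8a, covered 1.32 to 10.4 CPM in isotype Tim-4low and 1.01 to 8.51 CPM in isotype Tim-4high libraries, against 0.0827 to 0.663 and 0.0395 to 0.523 CPM without a tumor. In anti-Tim-4 libraries it covered 1.03 to 1.71 CPM in Tim-4low macrophages and 0.311 to 1.04 CPM in Tim-4high macrophages.

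Lck and Thy1 were highest in library 1 among no-tumor libraries. Lck stood at 3.25, 4.37 and 2.61 CPM and 2.45, 2.0 and 1.46 CPM in anti-Tim-4 Tim-4low and Tim-4high libraries. Lck in isotype mice was at 4.66, 3.28 and 20 CPM in Tim-4low macrophages and 3.99, 2.83 and 21.4 CPM in Tim-4high libraries. No-tumor mice gave 3.03, 1.19 and 0.662 CPM in Tim-4low macrophages and 3.14, 1.22 and 0.604 CPM in Tim-4high libraries, so that library 1 of the Tim-4high population exceeded isotype library 2. Thy1, a glycoprotein on mouse T cells, did not overlap between isotype and no tumor, and covered 3.49 to 5.54 and 1.87 to 3.38 CPM in anti-Tim-4 Tim-4low and Tim-4high macrophages. It covered 5.13 to 31.3 and 3.95 to 30.6 CPM with isotype, against 0.634 to 3.38 and 1.02 to 3.36 CPM without a tumor.

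Of the 4 cytotoxic granule transcripts, Gzmb was close to absent without a tumor. Gzmb stood at 4.19, 4.97 and 3.78 CPM in anti-Tim-4 Tim-4low and 2.72, 1.96 and 1.32 CPM in anti-Tim-4 Tim-4high libraries. Isotype libraries held 5.52, 4.76 and 25.5 CPM of Gzmb in Tim-4low and 4.68, 3.12 and 30.1 CPM in Tim-4high macrophages. In no-tumor libraries Gzmb was at 0.174, 0.0313 and 0.0276 CPM in Tim-4low macrophages and 0.299, 0.118 and 0 CPM in Tim-4high macrophages. These no-tumor values rest on 5, 1 and 1 counts in Tim-4low and on 8, 3 and 0 counts in Tim-4high libraries. Every tumor library exceeded every no-tumor library in Gzmb. Gzma was at 2.35, 2.22 and 1.29 CPM and 1.51, 1.31 and 0.915 CPM in anti-Tim-4 Tim-4low and Tim-4high libraries. Under isotype Gzma reached 3.39, 2.61 and 18.5 CPM in Tim-4low macrophages and 2.53, 1.88 and 14.8 CPM in Tim-4high libraries, while no-tumor libraries held 0.279, 0.282 and 0 CPM and 0.56, 1.03 and 0.189 CPM. The tumor and no-tumor libraries of Gzma overlapped, since anti-Tim-4 Tim-4high library 3 lay below no-tumor Tim-4high library 2. Gzma was lower in Tim-4low than in Tim-4high macrophages in all 3 no-tumor numbers, and higher in all 6 tumor numbers. Prf1 covered 1.55 to 1.95 and 0.732 to 1.05 CPM in anti-Tim-4 Tim-4low and Tim-4high libraries, 1.86 to 14.3 and 1.3 to 16.3 CPM in isotype ones and 0.11 to 0.419 and 0.113 to 0.486 CPM in no-tumor ones. Nkg7 covered 1.55 to 2.96, 1.21 to 1.31, 2.08 to 16.2, 1.27 to 14.7, 0.165 to 0.837 and 0.226 to 1.23 CPM in the same order of groups.

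**Figure D1:**
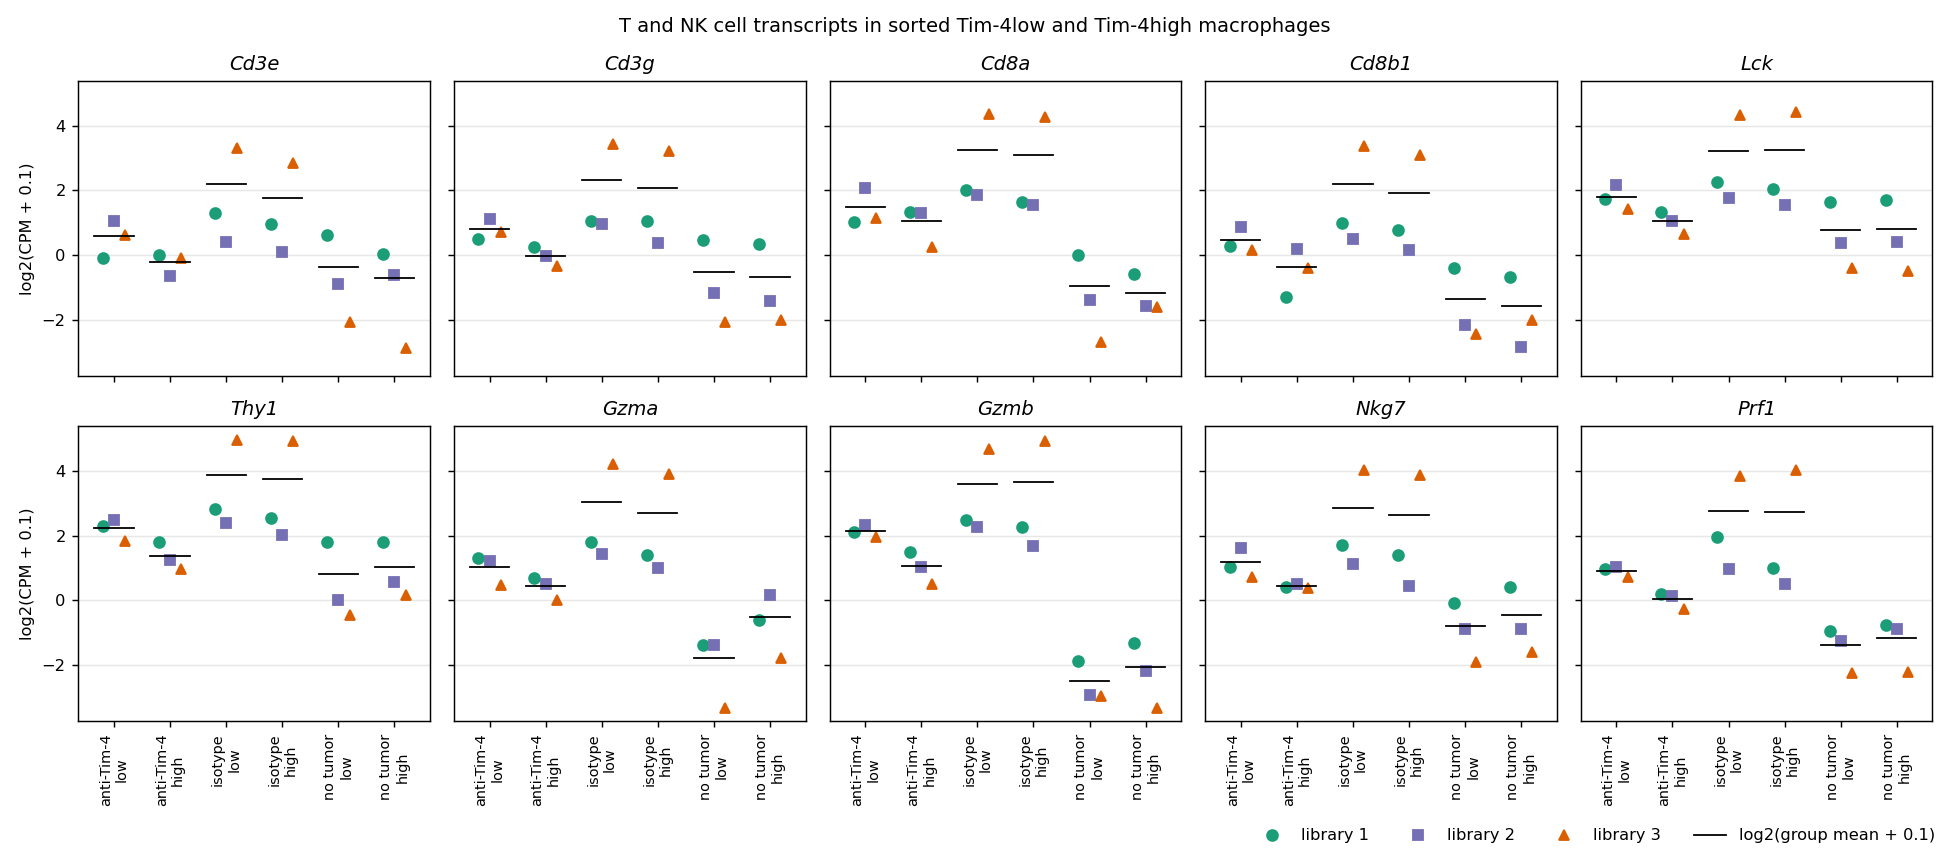
Level of each member as log2(CPM + 0.1) in each library (y axis) by group (x axis), with the library number as shape and color and a bar at the log2 of the group mean. Isotype library 3 is the top point of both isotype groups in every panel, and the no-tumor points of Gzmb lie below all of its tumor points.

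Because CPM does not correct for transcript length, levels were compared between genes per kilobase of annotated exon (RPKM). Gzmb was the highest of the 10 members per length in anti-Tim-4 Tim-4low macrophages (3.0 ± 0.421 RPKM, SD, n = 3), anti-Tim-4 Tim-4high ones (1.39 ± 0.489 RPKM), isotype Tim-4low ones (8.31 ± 8.2 RPKM) and isotype Tim-4high ones (8.8 ± 10.6 RPKM). Without a tumor it was 10th in Tim-4low (0.0542 ± 0.0583 RPKM) and 9th in Tim-4high macrophages (0.0969 ± 0.105 RPKM), where Lck (0.556 ± 0.425 RPKM) and Nkg7 (0.69 ± 0.581 RPKM) came first. Cd3e was 10th in each tumor group, at 0.348 ± 0.14 RPKM in anti-Tim-4 Tim-4low and 1.1 ± 1.16 RPKM in isotype Tim-4low macrophages. In each of the 6 groups the ranges over libraries of neighbours in this order overlapped.

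The make-up of the member RNA also differed between tumor and no-tumor libraries. Gzma, Gzmb, Nkg7 and Prf1 made up 37.9 to 43.8% of the summed CPM of the 10 members in anti-Tim-4 Tim-4low libraries and 38.1 to 38.6% in anti-Tim-4 Tim-4high ones. Their share was 40.9 to 42.2% and 37.2 to 44.1% in isotype Tim-4low and Tim-4high libraries, against 13.8 to 24.5% and 19.4 to 35.2% without a tumor. Cd3e, Cd3g, Lck and Thy1 together took 43.3 to 44.5% and 38.8 to 45.7% with anti-Tim-4, 40.5 to 42.5% and 39.8 to 45.4% with isotype, and 66.2 to 78.1% and 60 to 70.1% without a tumor, Tim-4low given before Tim-4high. The tumor and no-tumor libraries did not overlap in either share. The granule genes did not differ alike. Gzmb had mean shares of 13.8 to 17.3% in the tumor groups, against 1.16 and 1.5% without a tumor. Prf1 had 6.58 to 8.29%, against 5.35 and 5.24%. Nkg7 differed little, with 7.74 to 9.13% against 8.34 and 8.66%. Gzma averaged 9.64% with isotype and 2.91% without a tumor in Tim-4low macrophages, but 8.77% and 9.82% in Tim-4high ones. Isotype library 3, which had the most member RNA, lay inside the range of the other tumor libraries for the granule share in Tim-4low macrophages and above it in Tim-4high ones. The CPM ratio of Gzmb to Cd3e was 2.51 to 4.96 and 1.57 to 3.64 in anti-Tim-4 Tim-4low and Tim-4high libraries and 2.32 to 3.87 and 2.54 to 4.25 in isotype ones, against 0.0714 to 0.20 and 0 to 0.32 without a tumor. The ratio of Cd3g to Cd3e, both of the same receptor complex, was 1.05 to 1.57 and 0.826 to 1.64 with anti-Tim-4 and 0.827 to 1.51 and 1.06 to 1.32 with isotype. Without a tumor it was 0.786 to 1.0 and 0.50 to 4.0. The ratio of 4.0, and that of 0 for Gzmb, came from no-tumor Tim-4high library 3. That library held 4 counts of Cd3g, 0 of Gzmb and 1 of Cd3e. No test was run on these shares and ratios.

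**Figure D2:**
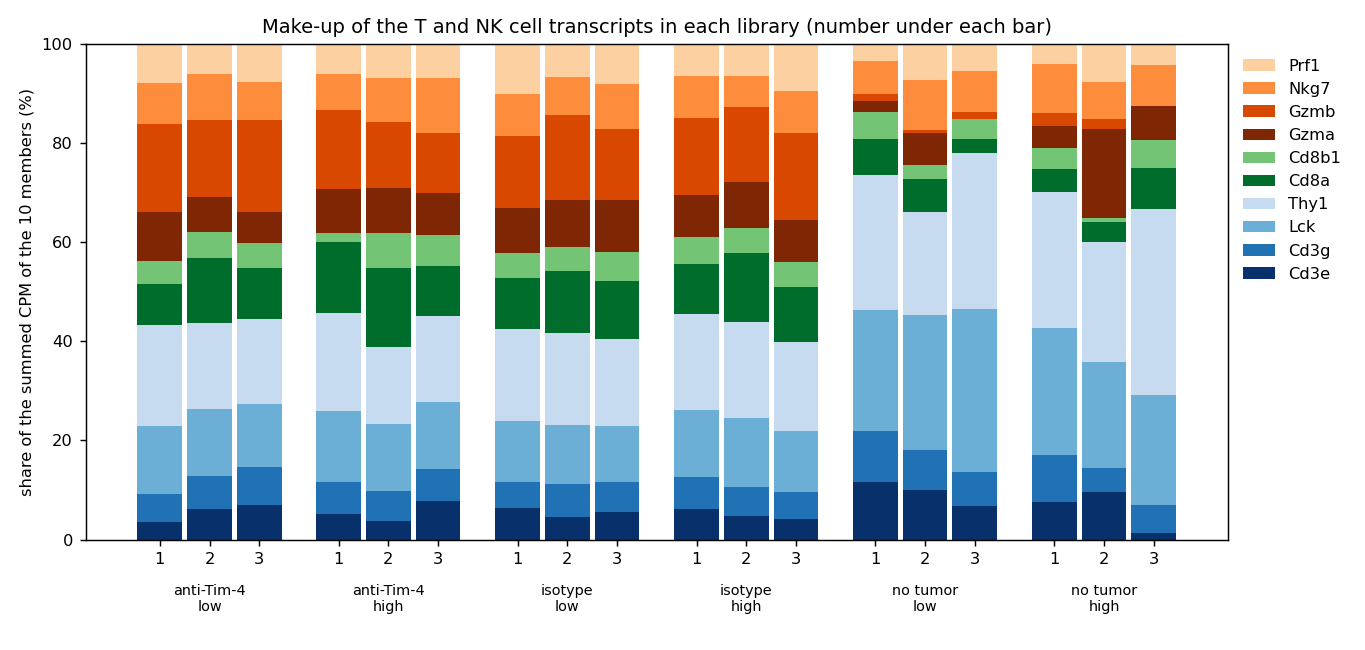
Share of the summed CPM of the 10 members taken by each gene (y axis, percent) in each library, with groups along the x axis and the library number under each bar. The granule genes, in orange and brown, together take a larger share in the 12 tumor libraries than in the 6 no-tumor libraries. Gzmb differs most among them and Nkg7 little.

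The first comparison set isotype tumor mice against no-tumor mice. In Tim-4low macrophages 10 of 10 members rose with the tumor, where 25.2% of all tested genes were called higher and 49.8% in either direction. In Tim-4high macrophages 10 of 10 rose as well, where 27.3% of genes were called higher and 51.5% in either direction. The median log2 fold change of the members was 3.96 in Tim-4low and 3.35 in Tim-4high macrophages, against -0.02 and -0.01 over all tested genes. Gzmb had the largest fitted change, which rests on few counts without a tumor and so on the prior count of the fit, 7.27 ± 1.19 on the log2 scale in Tim-4low (SE, adjusted p = 1.24e-04) and 6.45 ± 1.12 in Tim-4high macrophages (adjusted p = 1.90e-04). Mean Gzmb was 11.9 ± 11.8 CPM with isotype and 0.0778 ± 0.0837 CPM without a tumor in Tim-4low macrophages (SD, n = 3 each). Among the coreceptor genes, Cd8a rose by 4.54 ± 0.99 in Tim-4low (adjusted p = 0.00137) and 4.59 ± 1.02 in Tim-4high macrophages (adjusted p = 0.00153). Prf1 rose by 4.58 ± 1.00 and 4.22 ± 0.99 (adjusted p = 0.00136 and 0.00223, Tim-4low given first). Gzma rose by 5.48 ± 1.08 in Tim-4low and 3.43 ± 0.95 in Tim-4high macrophages (adjusted p = 6.40e-04 and 0.00681). The smallest changes were those of Lck, 2.53 ± 0.85 and 2.5 ± 0.85 (adjusted p = 0.0211 and 0.0226), and Cd3e, 2.78 ± 0.95 and 2.69 ± 0.99 (adjusted p = 0.0233 and 0.0323). Values of the 2 groups did not overlap for 9 members in each population, with Cd3e the exception in Tim-4low and Lck in Tim-4high macrophages, where 29.1% and 29.5% of all genes were separated upward.

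These counts rested in part on isotype library 3. Without it in both populations, 7 members were called in Tim-4low macrophages, not Cd3e, Cd3g or Lck, and 6 in Tim-4high macrophages, not Cd3e, Cd3g, Lck or Thy1. Of all genes, 23% were then called higher in Tim-4low and 24.3% in Tim-4high macrophages. When isotype library 3 was left out of the Tim-4high population alone, 3 members were called there, Cd8a, Gzmb and Prf1, where 24% of all genes were called higher. Left out of the Tim-4low population alone, 6 were called there, Cd8a, Cd8b1, Gzma, Gzmb, Nkg7 and Prf1, where 23.3% of all genes were. The 4 granule genes and both coreceptor genes passed in both populations when isotype library 3 was left out of both. Gzmb then stood at 6.05 ± 0.62 in Tim-4low (adjusted p = 7.97e-06) and 4.75 ± 0.59 in Tim-4high macrophages (adjusted p = 3.14e-05). Cd8b1 stood at 2.49 ± 0.75 and 2.42 ± 0.79 (adjusted p = 0.0151 and 0.0226). Cd3e stood at 1.45 ± 0.79 and 1.45 ± 0.84 (adjusted p = 0.149 and 0.174). No-tumor libraries also decided calls. Without no-tumor library 3 of the same population, 7 members were called in Tim-4low macrophages, not Cd3e, Cd3g or Lck, and 6 in Tim-4high ones, not Cd3e, Cd3g, Lck or Thy1. Without no-tumor library 2 of the same population, 8 were called in Tim-4low and 7 in Tim-4high macrophages. In these fits the counts of all genes called in either direction stayed within 1.5 times of those with all libraries. With all libraries 49.8% of genes in Tim-4low and 51.5% in Tim-4high macrophages were called in either direction, and 25.2% and 27.3% were called higher. The shares called higher in the fits without a no-tumor library are not given here, so these member counts lack their own background. In a fit of the compared groups alone, Cd3e missed the threshold in both populations (adjusted p = 0.0584 in Tim-4low and 0.0627 in Tim-4high) and Lck in Tim-4high macrophages (adjusted p = 0.0611).

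**Figure D3:**
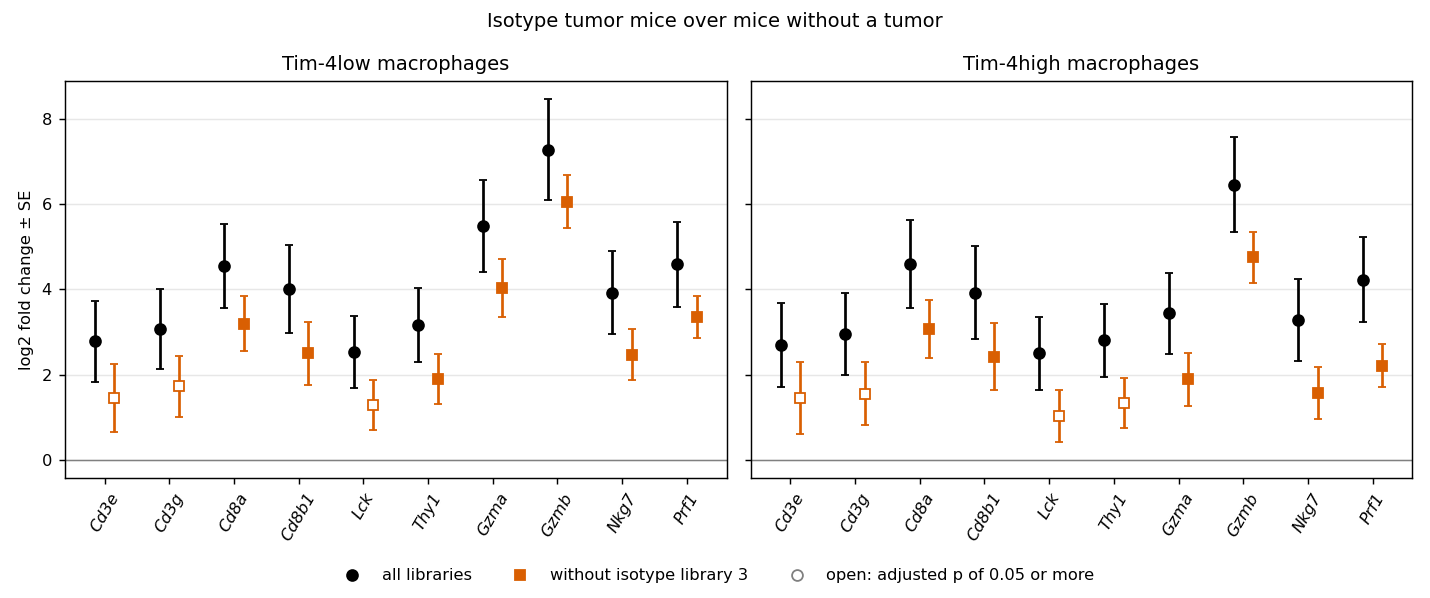
Log2 fold change of isotype tumor over no tumor (y axis, ± SE) of each member (x axis) in Tim-4low and Tim-4high macrophages, with all libraries (black circles) and without isotype library 3 in either population (orange squares). Filled symbols passed an adjusted p of 0.05, and leaving out the library lowers every point and opens the symbols of Cd3e, Cd3g and Lck in both panels and of Thy1 in the Tim-4high panel.

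The second comparison set anti-Tim-4 against isotype in tumor mice. All 10 members had fitted levels below isotype in both populations, where 46.8% of all genes in Tim-4low and 49.4% in Tim-4high macrophages lay above it. None of the 10 passed the adjusted test of edgeR. In Tim-4high macrophages the log2 fold changes ran from -2.81 for Prf1 to -2.09 for Cd8a, with adjusted p from 0.0564 for Gzmb to 0.17 for Cd3e, where 7.97% of all genes were called and 3.67% were called lower. At an unadjusted p under 0.05 the count was 10 of 10, against 26.1% of all genes. Gzmb averaged 2.0 ± 0.702 CPM with anti-Tim-4 and 12.6 ± 15.2 CPM with isotype (SD, n = 3 each, log2 fold change -2.66 ± 0.81). For 8 members every anti-Tim-4 library lay below every isotype library, with 19.3% of all genes separated downward, and Cd8b1 and Nkg7 overlapped. DESeq2 called 4 members lower, Cd8b1, Thy1, Gzmb and Prf1 (adjusted p = 0.049, 0.0399, 0.0439 and 0.0218), where it called 7.27% of genes lower. In the authors' deposited table for this comparison the linear folds of the members ran from -4.27 for Cd8a to -7.02 for Prf1. For 4 of them there was an FDR under 0.05 in the authors' deposited table, Cd3e (0.0042), Thy1 (0.0401), Gzmb (0.0405) and Prf1 (0.0488), where 10.6% of its genes had such an FDR and a negative fold.

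In Tim-4low macrophages the members lay at log2 fold changes of -2.07 for Gzma to -1.45 for Lck (adjusted p = 0.337 to 0.47), where 0.325% of all genes were called and 0.102% were called lower. At an unadjusted p under 0.05 the count was 3, Cd8a, Gzma and Prf1, against 12.3% of all genes, and DESeq2 called 0 members. Gzma was the member without overlap, where 9.96% of all genes were separated downward, at 2.35, 2.22 and 1.29 CPM with anti-Tim-4 and 3.39, 2.61 and 18.5 CPM with isotype. Without isotype library 3 in both populations the log2 fold changes shrank to between -0.66 and -0.21 in Tim-4low macrophages (adjusted p = 0.621 to 0.948), where 0.0361% of all genes were then called and 0.00602% called lower. In Tim-4high macrophages they shrank to between -0.96 and -0.58 (adjusted p = 0.259 to 0.626), still below 0 for 10 of 10, where 1.29% of all genes were called and 0.524% called lower. Isotype library 2 worked the other way. Without it in both populations edgeR called 3 members lower in Tim-4high macrophages, Thy1, Gzmb and Prf1. When it was left out of that population alone, 2 were called lower, Gzmb and Prf1. In both fits the count of all genes called stayed within 1.5 times of 1324, the 7.97% called with all libraries. With all libraries 3.67% of genes were called lower, and the share called lower in both fits is not given here. Summed over the 10 members, anti-Tim-4 Tim-4high libraries held 17.1, 14.7 and 10.8 CPM against 29.9, 20.4 and 172 CPM in isotype ones, so all 3 lay below all 3. Anti-Tim-4 Tim-4low libraries held 23.6, 31.9 and 20.4 CPM against 37.7, 27.6 and 177 CPM, and library 2 with anti-Tim-4 exceeded library 2 with isotype. Markers of other cells also differed in Tim-4high macrophages, where 5 of 9 fibroblast and mesothelial markers, 1 of 6 tested neutrophil markers and 3 of 10 macrophage markers were called lower with anti-Tim-4, as was Krt7, 1 of 5 tested epithelial markers. None of these was called in Tim-4low macrophages by edgeR, and without isotype library 3 in both populations none was in Tim-4high macrophages. Their part in the result was not tested. The member sum without a tumor was 12.4, 4.35 and 2.01 CPM in Tim-4low macrophages and 12.3, 5.72 and 2.72 CPM in Tim-4high libraries.

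**Figure D4:**
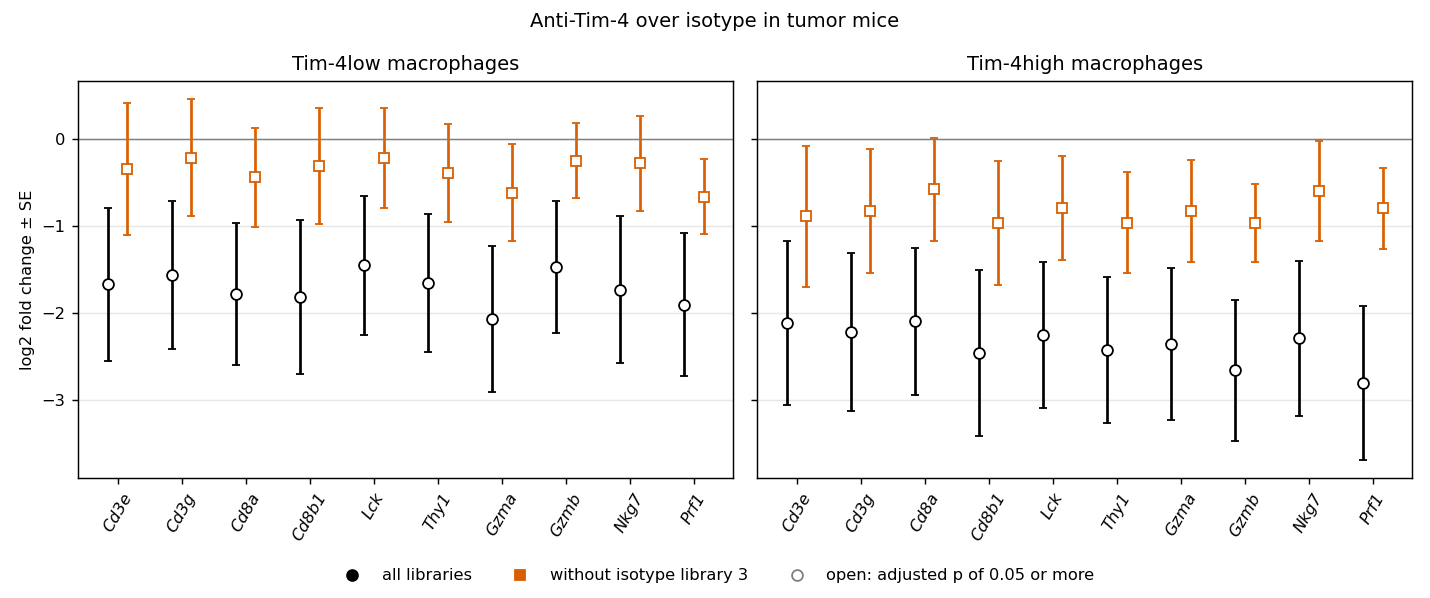
Log2 fold change of anti-Tim-4 over isotype (y axis, ± SE) of each member (x axis) in Tim-4low and Tim-4high macrophages, with all libraries (black circles) and without isotype library 3 in either population (orange squares). Every symbol is open and below 0, and the points lie nearer to 0 without isotype library 3.

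The third comparison set Tim-4low against Tim-4high macrophages within a condition. Over all genes, libraries with the same number in both populations deviated together within a condition. Fits with library number as a block are therefore given here beside those without. The order of the 3 numbers was the same in both populations for 10 of 10 members with isotype and 9 without a tumor. With anti-Tim-4 it was the same for 2. The block fit estimates its spread over all conditions together, so its calls with anti-Tim-4 do not rest on pairing in that condition alone. With anti-Tim-4, 10 of 10 members had higher mean levels in Tim-4low macrophages, where 49.1% of all genes lay above 0, by 0.47 for Cd8a to 1.11 for Gzmb on the log2 scale. None passed the test without the block (adjusted p = 0.604 to 0.867, 0 at an unadjusted p under 0.05 and 0 by DESeq2), where 1.39% of all genes were called and 13.4% had such an unadjusted p. With the block 5 members were called higher in Tim-4low macrophages, where 3.14% of all genes were called higher and 7.12% in either direction. They were Cd3g (0.88, adjusted p = 0.0452), Lck (0.79, adjusted p = 0.0151), Thy1 (0.89, adjusted p = 0.012), Gzmb (1.13, adjusted p = 0.012) and Prf1 (0.94, adjusted p = 0.0427). Gzmb was at 4.19, 4.97 and 3.78 CPM in Tim-4low macrophages and 2.72, 1.96 and 1.32 CPM in Tim-4high libraries 1 to 3, higher in Tim-4low in each pair and without overlap. In all, 8 members were higher in Tim-4low in each of the 3 pairs, and Cd3e and Cd8a in 2 of 3. Summed markers of other cells also differed without overlap there. Fibroblast and mesothelial markers summed to 15.3 to 26.4 CPM in Tim-4low macrophages and 4.31 to 6.49 CPM in Tim-4high macrophages, and neutrophil markers to 37.3 to 75.7 and 25.5 to 33.4 CPM. Red cell and platelet markers summed to 13.8 to 19.7 CPM in Tim-4low macrophages and 8.73 to 10.8 CPM in Tim-4high macrophages, and eosinophil markers to 2.87 to 4.61 and 1.46 to 2.41 CPM. Epithelial markers lay the other way, at 13.3 to 14 CPM in Tim-4low macrophages and 18.6 to 20.1 CPM in Tim-4high macrophages. Their part in the result was not tested. Groups did not overlap for 6 members, against 10.8% of all genes separated upward.

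With isotype, 8 members were at higher and 2 at lower fitted levels in Tim-4low macrophages, between -0.08 for Gzmb and 0.45 for Cd3e, against 51.4% of all genes above 0, and none was called with or without the block. The share of all genes called was 24.1% without the block and 34.1% with it. The sign for Lck and Gzmb turned with the block, to 0.09 and 0.15. At an unadjusted p under 0.05 the count was 0 without the block, against 35.4% of all genes, and DESeq2 called 0. Without isotype library 3 in both populations the range was 0.21 to 0.81, with no member called, against 17.3% of all genes called and 7.91% called higher. Without the Tim-4high isotype library 3 alone, Prf1 was called higher in Tim-4low macrophages (2.05, adjusted p = 0.0489), where 9.42% of all genes were called higher. Without a tumor, 4 members were at higher and 6 at lower fitted levels in Tim-4low macrophages, with 51.9% of all genes above 0, and none was called without the block (adjusted p = 0.354 to 0.981, 0 at an unadjusted p under 0.05 and 0 by DESeq2), against 24.6% of all genes called and 35.1% at an unadjusted p under 0.05. Gzma was lower in Tim-4low in each no-tumor pair, at 0.279, 0.282 and 0 CPM in Tim-4low macrophages and 0.56, 1.03 and 0.189 CPM in Tim-4high libraries. Its log2 fold change was -1.69 ± 1.21 without the block (adjusted p = 0.354). With the block it was -1.69 (adjusted p = 0.00448), the 1 member called, where 34.3% of all genes were called. The authors' deposited table for no-tumor mice gives Tim-4high over Tim-4low. In it no member had an FDR under 0.05, where 17.5% of its genes did. Gzma had the smallest FDR of the members with one listed, 0.353.

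Summed over the 10 members, the ratio of Tim-4low to Tim-4high CPM was 1.38, 2.18 and 1.89 in anti-Tim-4 numbers 1 to 3, 1.26, 1.36 and 1.03 in isotype numbers and 1.01, 0.76 and 0.741 in no-tumor numbers. All 3 anti-Tim-4 ratios lay above all 3 isotype ratios, and all 3 isotype ratios above all 3 no-tumor ratios. Within isotype mice the number that was highest was 3 for 10 of 10 members in both populations. Within no-tumor mice it was number 1 for 9 members in both populations and number 2 for Gzma. Within anti-Tim-4 mice the populations had the same highest number for 3 members, Cd8b1, Gzma and Nkg7.

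**Figure D5:**
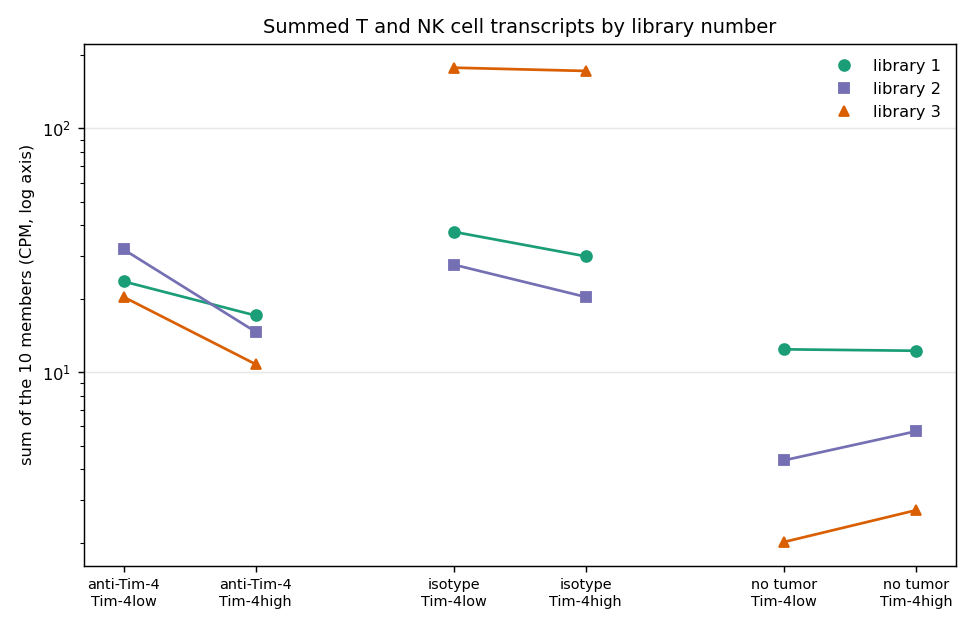
Summed CPM of the 10 members (y axis, log scale) in the Tim-4low and Tim-4high library of each number, joined by a line, in the 3 conditions along the x axis. The 3 anti-Tim-4 lines fall toward Tim-4high, isotype number 3 lies far above the others in both populations, and no-tumor numbers 2 and 3 lie higher in Tim-4high.

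Whether the tumor or antibody differences themselves differed between the populations was tested as an interaction. No member was called for the tumor (adjusted p = 0.546 to 0.993) or the antibody (adjusted p = 0.61 to 0.934) without the block. The counts at an unadjusted p under 0.05 and by DESeq2 were 0 as well, where 3.53% and 2.93% of all genes were called and 16.3% and 19.3% had such an unadjusted p. With the block, Gzma passed for the tumor, with a change 2.08 larger on the log2 scale in Tim-4low than in Tim-4high macrophages (adjusted p = 0.00864), where 11.2% of genes passed. For the antibody, Lck (0.69, adjusted p = 0.0498) and Gzmb (0.98, adjusted p = 0.0433) passed with the block, where 15.7% of genes passed. A positive value means that the log2 fold change of anti-Tim-4 over isotype was nearer to 0 in Tim-4low macrophages. In the fit without the block these 2 values were 0.80 ± 1.14 and 1.19 ± 1.08. When the Tim-4high isotype library 3 alone was left out of that fit, both turned sign, to -0.65 for Lck and -0.49 for Gzmb.

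Other genes listed for T and NK cells, none of them a member, were counted in 3 lists. Of 24 genes of the T cell receptor complex and T cell signalling, 10 rose and 1 fell with the tumor in Tim-4low macrophages (median log2 fold change 1.77), and 12 rose and 0 fell in Tim-4high ones (median 1.88). Without isotype library 3 in both populations these counts were 3 and 1 in Tim-4low and 1 and 3 in Tim-4high macrophages (medians 0.54 and 0.62). Of the 16 tested among 19 NK cell and cytotoxic genes, 12 rose and 1 fell in Tim-4low (median 3.08) and 12 rose and 1 fell in Tim-4high macrophages (median 2.93). These became 8 and 1 in Tim-4low and 6 and 1 in Tim-4high macrophages without isotype library 3 (medians 1.83 and 1.32). Of 14 activation, checkpoint and regulatory genes, 4 rose and 1 fell in Tim-4low and 7 rose and 2 fell in Tim-4high macrophages, and 3 and 2, and 4 and 2, without isotype library 3. Of all genes tested, 25.2% were called higher in Tim-4low and 27.3% in Tim-4high macrophages, and 23% and 24.3% without isotype library 3. The genes that fell with all libraries were Cd2, S1pr5, S1pr1 and Icos. Summed CPM did not follow these counts in each list. The NK cell list summed to 63.4 to 70.1 and 75.8 to 109 CPM without a tumor, Tim-4low given first. With isotype it summed to 47.9, 40.8 and 156 CPM and 52.6, 41.3 and 162 CPM. The T cell list summed to 60.7 to 153 and 26.6 to 65.7 CPM without a tumor. With isotype it held 36.8 to 166 and 49.5 to 166 CPM. The third list held 131 to 272 and 178 to 262 CPM, and 299 to 359 and 265 to 356 CPM with isotype. In the comparisons of anti-Tim-4 with isotype, no gene of the 3 lists was called in either population by edgeR. The medians there were -1.22, -1.58 and -1.05 in Tim-4low and -1.76, -2.02 and -1.68 in Tim-4high macrophages, in the order of the lists above. Without isotype library 3 in both populations they were -0.09, -0.24 and -0.16 in Tim-4low and -0.48, -0.42 and -0.40 in Tim-4high macrophages.

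Several listed genes did not share the members' pattern. Cd2, an adhesion receptor of T and NK cells that mouse B cells also carry, was at 5.04, 4.35 and 12.5 CPM with isotype against 106, 44.8 and 67.7 CPM without a tumor in Tim-4low macrophages, a fall of 3.32 on the log2 scale (SE 0.66, adjusted p = 6.98e-04). In Tim-4high macrophages it did not pass (-1.0 ± 0.66, adjusted p = 0.221). This rested on single libraries, since without isotype library 3 in both populations it stood at -2.18 (adjusted p = 0.0126) and without no-tumor library 1 in both at 0.13 (adjusted p = 0.871). S1pr5, a sphingosine 1-phosphate receptor that NK cells use to leave tissues, fell by 3.22 in Tim-4low (SE 0.39, adjusted p = 8.89e-06) and by 2.39 in Tim-4high macrophages (SE 0.37, adjusted p = 6.71e-05). Ubash3a, a regulator of T cell receptor signalling, was higher in Tim-4high than in Tim-4low isotype libraries, at 7.48, 4.85 and 12.2 CPM in Tim-4low macrophages and 29.5, 26.9 and 28.1 CPM in Tim-4high macrophages, with library 3 inside the range in the second. Ccl5, a chemokine of cytotoxic cells, rose by 2.33 ± 0.61 in Tim-4low (adjusted p = 0.00486) and 2.41 ± 0.62 in Tim-4high macrophages (adjusted p = 0.00439), and with anti-Tim-4 it stood at 14.5, 14.6 and 15.8 CPM in Tim-4high libraries against 9.25, 8.98 and 27.1 CPM with isotype.

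The genes whose levels followed the members most closely were ranked over the 18 libraries by Pearson's r between deviations from group means on the log2 scale, among 11502 genes. The first were Il2rb (0.981), Cd5 (0.971), Ctsw (0.969), Themis (0.965) and Il18r1 (0.962). Others among the first 10 were Ms4a4b (0.960), Cd6 (0.957), Trbc2 (0.957) and Zap70 (0.956). Il2rb encodes a chain of interleukin receptors, Trbc2 a constant region of the T cell receptor and Zap70 a kinase that binds phosphorylated CD3 chains. The points share libraries, isotype library 3 among them. Il2rb reached 39.8 and 44 CPM in the Tim-4low and Tim-4high isotype library 3, against at most 7.96 CPM in another tumor library and 3.98 CPM in a no-tumor library. Trbc2 reached 11.8 and 9.12 CPM there, against at most 2.41 and 2.06 CPM. Each member correlated with the mean of the other 9 at an r of 0.849 for Cd8b1 to 0.993 for Lck.

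Some markers of other cell types moved with the members and others went the other way, and their part in the results was not tested. Isotype library 3 also had the most neutrophil RNA, 264 CPM in Tim-4low macrophages and 241 CPM in Tim-4high macrophages over 7 markers, against 37.4 and 65 CPM in Tim-4low macrophages and 47.6 and 51.9 CPM in Tim-4high macrophages in isotype libraries 1 and 2. Its 10 B cell markers summed to 99.9 CPM in Tim-4low macrophages and 92.3 CPM in Tim-4high macrophages, against 28.4 and 26.3 CPM in Tim-4low macrophages and 37.1 and 28.5 CPM in Tim-4high macrophages in isotype libraries 1 and 2. Fibroblast and mesothelial markers summed to 76.1 CPM in Tim-4low macrophages and 45.6 CPM in Tim-4high macrophages in isotype library 3, against 22.3 and 37.9 CPM in Tim-4low macrophages and 9.55 and 16.1 CPM in Tim-4high macrophages in isotype libraries 1 and 2. The sum of the 10 macrophage markers in that library was 18075 CPM in Tim-4low macrophages and 22787 CPM in Tim-4high macrophages, inside the isotype range. Red cell and platelet markers went the other way and were lowest there among isotype libraries. They summed to 22.3 CPM in Tim-4low macrophages, against 88.2 and 29.1 CPM in isotype libraries 1 and 2. In Tim-4high macrophages they summed to 13.8 CPM, against 37.1 and 18.4 CPM. B cell markers summed to 21.9 to 31.4 and 20.9 to 25.6 CPM in anti-Tim-4 Tim-4low and Tim-4high libraries and to 26.3 to 99.9 and 28.5 to 92.3 CPM with isotype, against 237 to 1883 and 193 to 612 CPM without a tumor, where library 1 was highest. With the tumor 10 of 10 B cell markers fell in Tim-4low and 9 of 10 in Tim-4high macrophages, while 9 of 9 and 9 of 9 fibroblast and mesothelial markers and 5 and 6 of 6 tested neutrophil markers rose. Neutrophil markers summed to 37.3 to 75.7 CPM in anti-Tim-4 Tim-4low and 25.5 to 33.4 CPM in anti-Tim-4 Tim-4high libraries, and to 0.965 to 7.43 and 1.86 to 3.88 CPM without a tumor. Of dendritic cell markers, 3 of 7 rose and 3 fell in Tim-4low and 3 rose and 1 fell in Tim-4high macrophages. Of mast cell markers, 1 of 6 tested rose and 4 fell in Tim-4low macrophages, and 1 and 4 in Tim-4high ones. Red cell and platelet markers rose for 5 of 6 tested in Tim-4low and 4 of 6 in Tim-4high macrophages. Of 5 tested epithelial markers 1 rose and 1 fell in each population. Between anti-Tim-4 and isotype none of the B cell, dendritic cell or mast cell markers was called by edgeR. Defining markers at 0 in all 3 libraries of a group were Ly6g, a neutrophil marker, in no-tumor Tim-4low, Camp, another, in anti-Tim-4 Tim-4high, Prg2 of eosinophils in no-tumor Tim-4high, Gzmc, a granzyme, in no-tumor Tim-4low libraries, Krt19 of mesothelium in no-tumor Tim-4high and Gp9 of platelets in no-tumor Tim-4low libraries.

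Lck has a proximal promoter, used mainly in the thymus, and a distal one, used also in mature T cells, and the deposited transcript counts separate their products. In the annotation Lck-202 begins at the distal start, 129573641, and Lck-201 at the proximal one, 129558391, 15250 bases downstream on the minus strand. Lck-202 held 64, 65.9 and 87.5% of the Lck counts in anti-Tim-4 Tim-4low libraries 1 to 3 and 84.3, 77.8 and 71.2% in anti-Tim-4 Tim-4high ones. Its share was 72.1, 86.9 and 86% in isotype Tim-4low and 76.7, 83.2 and 84.4% in isotype Tim-4high libraries. Without a tumor it was 61.1, 82.2 and 23.1% in Tim-4low and 57, 85.3 and 81.5% in Tim-4high libraries, the lowest of these from a library with 24 estimated Lck counts. Lck-202 exceeded the proximal forms Lck-201 and Lck-208 together in every library except no-tumor Tim-4low library 3, where these held 59.3%. These are the authors' estimated counts, split between transcripts that share most exons, and no test was run on them.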

How the data were processed

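RNA was measured in 18 libraries of sorted macrophages, in 6 groups of 3 taken from the labels. Per the submitters' processing notes, reads were aligned with STAR to mm10 and tested with DESeq2, with no versions stated. No source used here names the quantifier, the annotation or the use of strand. Estimated counts, not normalized, were deposited at the level of genes and of transcripts. Of the gene counts 62.8 to 66.8% per library were whole within 0.001. The authors' tables also hold p-values with an FDR and a signed fold, a score with no value between -1 and 1, from DESeq2 per the file headers.

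Gene counts were rounded and fitted with edgeR 4.0.16 in R 4.3.3 (TMM, filterByExpr, quasi-likelihood test, 1 coefficient per group). Of 23511 genes 16609 were tested, and the others held at most 0.0879% of a library. P-values were adjusted by Benjamini-Hochberg over all tested genes and called under 0.05; every adjusted p is from this test unless DESeq2 (1.42.0) is named. The procedure was tested on simulated data. Library totals of 24530070 to 34110392 counts were the depth, and standard errors come from the spread between libraries. Members and lists were chosen with earlier results of these data known. Named genes were the 10 members, Timd4, up to 4 tested genes of each list by highest mean CPM, and the 10 genes most like the members, 1 of which is not reported here. Icos and the markers listed at 0 were named after their values were seen.

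Same-numbered Tim-4low and Tim-4high libraries of a condition were taken as paired, because their deviations from group means correlated at 0.155 to 0.489 in 9 of 9 pairs. Other numbers of a condition gave -0.432 to 0.209, so the ranges overlapped. With anti-Tim-4 the same-numbered pairs were at 0.230, 0.155 and 0.352. The pairing was thus read from these same data, and the labels do not state it. Across conditions the numbers gave -0.294 to 0.16 and do not pair libraries. Alternatives were other size factors, no filter, fits of only the compared groups, library number as a block, DESeq2 and leaving out each library.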

Additional observations from a re-analysis of the deposited data

Results flagged for a closer look

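Gzma, the gene for granzyme A, is given here because it was the member that lay higher in Tim-4low in every isotype pair and lower in every no-tumor pair. Fitted differences of Thy1, Nkg7 and Prf1 also had opposite signs in the 2 conditions, but not in every pair. The log2 fold change of isotype tumor over no tumor was 2.05 larger in Tim-4low than in Tim-4high macrophages. It ran from 0.60 without isotype Tim-4low library 3 to 3.60 without isotype Tim-4high library 3. Gzma was higher in Tim-4low libraries in 3 of 3 isotype pairs and lower in them in 3 of 3 no-tumor pairs. The edgeR interaction test did not pass without a block (adjusted p = 0.546) and passed with library number as a block (adjusted p = 0.00864). In no-tumor libraries the values rest on few counts, with 0 in Tim-4low library 3.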

How the results depend on the processing

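With TMM replaced by DESeq2's size factors (RLE), every count of genes and members called stayed within 1.5 times and no member turned direction. Without a filter on low counts, 34 genes were called between anti-Tim-4 and isotype in Tim-4low macrophages, against 54. In fits of the compared groups alone the counts of genes called were 2385 for Tim-4low against Tim-4high without a tumor (against 4086 over all groups), 430 with anti-Tim-4 (against 231), 2866 for anti-Tim-4 against isotype in Tim-4high (against 1324), 3 in Tim-4low, and 944 for the antibody interaction (against 487). With library number as a block, 1182 genes and 5 members were called for Tim-4low against Tim-4high with anti-Tim-4 and 1 member without a tumor. The block gave 1858 genes and 1 member for the tumor interaction (against 587 genes), and 2609 genes and 2 members for the antibody interaction. With isotype it turned Lck to 0.0902 and Gzmb to 0.153. For comparisons between conditions, where numbers do not pair libraries, a block on the number left 9 of 10 members called for the tumor in Tim-4high macrophages, without Cd3e (adjusted p = 0.0624), and 10 of 10 in Tim-4low ones. DESeq2 called 529 genes for Tim-4low against Tim-4high with anti-Tim-4, 2108 and 4 members for anti-Tim-4 against isotype in Tim-4high, 286 in Tim-4low, 1028 for the tumor and 1297 for the antibody interaction. Without Thy1, Lck, Cd8a and Gzmb the mean member sum was 10.2 CPM in Tim-4low macrophages and 5.74 CPM in Tim-4high anti-Tim-4 macrophages.

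Leaving out single libraries gave 26 to 139 genes called for Tim-4low against Tim-4high with anti-Tim-4, 2658 to 3514 with isotype and 2831 to 3878 without a tumor. It gave 10 to 1196 genes for anti-Tim-4 against isotype in Tim-4high and 2 to 64 in Tim-4low, 7605 to 8150 for the tumor in Tim-4high and 7014 to 7543 in Tim-4low, 328 to 952 for the tumor and 1 to 1430 for the antibody interaction. Members called were 3 to 10 for the tumor in Tim-4high, 6 to 10 in Tim-4low, 0 to 2 for anti-Tim-4 against isotype in Tim-4high and 0 to 1 for Tim-4low against Tim-4high with isotype. The log2 fold changes of Tim-4low over Tim-4high with isotype covered Cd3e -0.87 to 1.68, Cd3g -1.12 to 1.63, Cd8a -1.18 to 1.67, Cd8b1 -1.21 to 1.79, Lck -1.24 to 1.45, Thy1 -1.15 to 1.58, Gzma -1.09 to 1.89, Gzmb -1.3 to 1.62, Nkg7 -1.23 to 1.92 and Prf1 -1.2 to 2.05. Those without a tumor covered Cd3e -0.84 to 1.15, Cd3g -1.15 to 1.41, Cd8a -1.06 to 0.77, Cd8b1 -1.19 to 1.49, Lck -0.85 to 0.81, Thy1 -1.33 to 0.42, Gzmb -2.1 to 0.31, Nkg7 -1.09 to 0.50 and Prf1 -0.74 to 0.0805. The antibody interaction covered Lck -0.65 to 2.03 and Gzmb -0.49 to 2.41, and Cd2 for the tumor in Tim-4high -2.18 to 0.14. Mean member sums covered 22 to 27.7 CPM in anti-Tim-4 Tim-4low, 12.7 to 15.9 in anti-Tim-4 Tim-4high, 32.7 to 108 in isotype Tim-4low, 25.1 to 101 in isotype Tim-4high, 3.18 to 8.38 in no-tumor Tim-4low and 4.22 to 8.99 in no-tumor Tim-4high libraries.

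Leaving out a library number in both populations at once is given by condition and number. Genes called were 10 without anti-Tim-4 number 1, 2 without anti-Tim-4 number 2 and 10 without anti-Tim-4 number 3 for Tim-4low against Tim-4high with anti-Tim-4, 1788 without isotype number 1 and 1983 without isotype number 2 for Tim-4low against Tim-4high with isotype, 2327 without no-tumor number 3 for Tim-4low against Tim-4high without a tumor, 216 without anti-Tim-4 number 2, 264 without anti-Tim-4 number 3, 0 without isotype number 1 and 215 without isotype number 3 for anti-Tim-4 against isotype in Tim-4high, 1 without anti-Tim-4 number 1, 7 without anti-Tim-4 number 2, 29 without anti-Tim-4 number 3, 0 without isotype number 1, 3 without isotype number 2 and 6 without isotype number 3 for anti-Tim-4 against isotype in Tim-4low, 223 without isotype number 1, 235 without isotype number 2, 262 without isotype number 3, 913 without no-tumor number 1 and 218 without no-tumor number 3 for the tumor interaction, 44 without anti-Tim-4 number 1, 0 without anti-Tim-4 number 2, 0 without isotype number 1, 12 without isotype number 2 and 9 without isotype number 3 for the antibody interaction. Members called were 3 without isotype number 2 for anti-Tim-4 against isotype in Tim-4high, 6 without isotype number 3 and 6 without no-tumor number 3 for the tumor in Tim-4high. For Tim-4low against Tim-4high with isotype the log2 value turned to -0.12 for Prf1 without isotype number 1, -0.00833 for Prf1 without isotype number 2, 0.21 for Lck without isotype number 3 and 0.39 for Gzmb without isotype number 3. For Tim-4low against Tim-4high without a tumor the log2 value turned to -0.0571 for Cd3e without no-tumor number 1, -0.51 for Cd8a without no-tumor number 1 and 0.00148 for Lck without no-tumor number 1. For the tumor in Tim-4high the log2 value turned to 0.13 for Cd2 without no-tumor number 1. The cause of these changes was not tested. The block changed no other count of members called by more than 1.5 times. Depth limits the no-tumor values most, where single members rest on 0 to a few counts.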
